A study of Mus musculus with 32 samples.

Results

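The Prader-Willi and Angelman domain of mouse chromosome 7 was followed gene by gene and base by base in messenger RNA of the brain. The genes were Snrpn, Snurf, Ndn, Magel2 (listed under its older symbol nS7), Mkrn3, Ube3a and Atp10a, chosen by their symbols, together with every genomic base between Ube3a and Mkrn3 that differs between the parental strains. All 7 genes were listed in the embryonic table of 17890 genes and in the table of 14369 genes of the preoptic area (POA), and 6 of them among the 14097 genes of the medial prefrontal cortex (PFC). The genomic tables held 163 bases of the domain among 154001 on autosomes in the POA, 120 among 141284 in the PFC and 516 among 294513 in the embryo.

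The samples were reciprocal F1 hybrids of the inbred mouse strains CAST/EiJ (CAST) and C57BL/6J (B6). The F1i cross had a CAST mother and a B6 father, and the F1r cross had a B6 mother and a CAST father. POA, a part of the anterior hypothalamus, and PFC of 5-week-old F1 mice were pooled from 8 to 10 animals at a time, by sex and cross, which makes 4 pools per region. Whole brain at embryonic day 15 (E15) gave 1 pool per cross of 4 to 5 embryos, whose sex the labels used here do not state, and inbred CAST and B6 whole brain of the same stage served as a check of allele assignment. Technical replicates of a pool had been summed before deposit, so the 10 F1 pools are the units of the tests. The edgeR p-values measure the spread between pools, and the Fisher's exact tests at E15 measure counting error only. Allele reads over autosomal transcripts numbered 3507191 to 7499780 per adult pool, 11210250 in the F1i and 11598259 in the F1r embryonic pool. A summed list of POA neuron markers reached 313 to 410 reads per 1000000 allele reads (RPM) in POA pools and 6.97 to 9.41 in PFC pools, and a list of cortical excitatory neuron markers reached 6.81 to 11.3 in POA pools and 2559 to 3789 in PFC pools. The sums cover different genes, since only listed markers count. Of 8 POA markers 7 were listed in the POA and 2 in the PFC, and of 5 cortical markers 2 and 4.

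Genomic imprinting leaves a gene active on the chromosome of only 1 parent. In this domain an imprinting centre at the promoter of Snrpn is methylated on the maternal chromosome, so that Snrpn, Ndn, Magel2, Mkrn3 and the long host transcript of the small nucleolar RNAs Snord115 and Snord116 are made from the paternal one. In neurons that host transcript runs on as an antisense RNA over Ube3a, which is then made mainly from the maternal chromosome. Loss of the paternal genes is known as the cause of Prader-Willi syndrome in humans, and loss of maternal UBE3A as the cause of Angelman syndrome.

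A read was assigned to a parent by the base it carried at a position where CAST and B6 differ. Bases that the results below turn on are shown as 25-base windows of the mm9 reference, which is B6, 5′ to 3′ on the strand of the gene, with the differing base in capitals. Positions in a window are counted from 1 at its 5′ end, and the CAST base is given as a change at position 13 where a transcript table named it. The windows are a coding exon of Ube3a (chr7:66541527-66541551, plus strand, T13C), an intron of Ube3a (chr7:66492644-66492668, plus strand), a position 1581 bp past the annotated end of Ube3a (chr7:66563666-66563690, plus strand), a coding exon of Snrpn (chr7:67131676-67131700, minus strand), the single exon of Ndn (chr7:69493331-69493355, plus strand, T13C), the coding exon of Magel2 (chr7:69525904-69525928, plus strand, G13A) and that of Mkrn3 (chr7:69564289-69564313, minus strand, A13G).
Ube3a coding exon: tatttacaataaTtgtatactggat
Ube3a intron: caaagaccttctGaaggtcttttaa
past the end of Ube3a: tattgtctctcaGacctatttaatt
Snrpn coding exon: gaacttggtttcAatgactgtggag
Ndn: ttgcagccgaggTccccgactgtga
Magel2: aaccaacagggtGcacatcttgaga
Mkrn3: agcaggtgctgcAgcgggagcgggt

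Snrpn (chr7:67127388-67285105, mm9, minus strand) encodes SmN, a protein of the spliceosome that is abundant in neurons, and it was read almost wholly from the paternal chromosome in every pool. In the POA the maternal allele had 2 of 1505 reads in the F1i male, 9 of 1719 in the F1r male, 4 of 2549 in the F1i female and 16 of 2957 in the F1r female pool. In the PFC it had 2 of 1914, 21 of 2484, 7 of 3672 and 20 of 3016 reads in the same order of pools. At E15 it had 17 of 2706 reads in F1i and 78 of 3668 in F1r. These counts cover the Snrpn transcript with most reads. Bases listed only for other Snrpn transcripts, on fewer reads, were less uniform. Maternal reads numbered 33 of 116 at base 75 in the POA, 4 of 17 at base 37 in the PFC and 18 of 45 at base 222 at E15. At base 80 they numbered 2 of 49 in the POA and 0 of 102 at E15. The maternal share was lower in every F1i pool than in every F1r pool of the same tissue, from 0.104% to 0.191% in the adult F1i pools and from 0.524% to 0.845% in the adult F1r pools. At E15 it was 0.628% in F1i and 2.13% in F1r. Snurf, an upstream reading frame on the same messenger RNA, shares its listed bases with Snrpn, so its reads are no separate evidence. Its mean maternal share was 0.177% ± 0.147 in the POA and 0.387% ± 0.31 in the PFC (SD, n = 4 each), and 0.0836% in F1i and 1.25% in F1r at E15.

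Ndn (chr7:69493163-69494814) encodes necdin, a MAGE family protein of postmitotic neurons, and has 1 informative base. The maternal allele had 8 of 652, 2 of 613, 8 of 1272 and 14 of 1673 reads in the POA pools (F1i male, F1r male, F1i female, F1r female). In the PFC it had 0 of 226, 1 of 137, 5 of 316 and 7 of 215. The embryonic pools showed 4 of 597 maternal reads in F1i and 30 of 519 in F1r, and the F1r pool held the highest share of the 10, 5.78%.

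Magel2 (chr7:69521865-69526526), a single-exon MAGE gene whose protein works with the ubiquitin ligase TRIM27, was listed in the POA and at E15. Maternal reads numbered 0 of 46, 7 of 54, 4 of 101 and 9 of 115 in the POA pools in the order given above, and 0 of 124 in F1i and 7 of 205 in F1r at E15. The POA share of 6.19% ± 5.53 (SD, n = 4) rested on 1 of its 6 bases. At the base numbered 4395 in the transcript, in the 3′ untranslated region, 18 of 28 reads were maternal, and over the other 5 bases 2 of 288 were, 0.694%. The genomic alignment gave 18 of 27 maternal reads at the same place. In the PFC the gene was not listed, which the tables do for a gene without a read in every pool.

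Mkrn3 (chr7:69562479-69565039, minus strand) encodes a makorin RING finger protein that restrains the onset of puberty, and its reads were mostly embryonic. At E15 the maternal allele had 5 of 569 reads in F1i and 3 of 124 in F1r. In the adult regions 0 of 8 reads in the POA and 0 of 14 in the PFC were maternal, too few to test, since 0 of 14 allows a maternal share of up to 21.4%. The embryonic F1i pool had 50.8 RPM and the F1r pool 10.7, and the gap came from 2 of the 4 bases: base 926 had 442 paternal reads in F1i and 50 in F1r, and base 725 had 74 and 16, whereas base 1607 had 34 and 33 and base 2417 had 14 and 22.

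A gene was called maternal or paternal when its Benjamini-Hochberg adjusted p over all autosomal genes was under 0.05 and both crosses lay on the same side of 50%. The log2 value of the test is the log2 odds ratio of CAST to B6 reads in F1i over F1r, positive for a maternal and negative for a paternal excess. In the POA 4 of the 5 members with a mean of at least 20 reads per pool were called, all paternal, against 1.18% of 11504 genes called either way and 0.869% called paternal. Snrpn had a log2 value of -16.87 (SE 0.17, edgeR adjusted p = 1.1e-22) and nS7 of -8.31 (SE 0.56, edgeR adjusted p = 5.22e-09). In the PFC 3 of 4 tested members were called paternal, against 0.444% of 11029 genes called either way and 0.299% called paternal. With both regions in 1 fit the same 3 were called, against 0.71% of 11275 genes. Ndn had a log2 value of -12.07 in the PFC fit (SE 0.48, edgeR adjusted p = 1.46e-13). At E15 5 of 7 members were called paternal, against 4.86% of 14191 genes called either way and 1.66% called paternal, by Fisher's exact test on the 2 libraries. Mkrn3 had a log2 value of -11.80 in that test (Fisher's exact adjusted p = 3.21e-122). Snurf, on reads shared with Snrpn, is 1 of the called members in every tissue and adds no separate evidence to these counts.

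**Figure D1:**
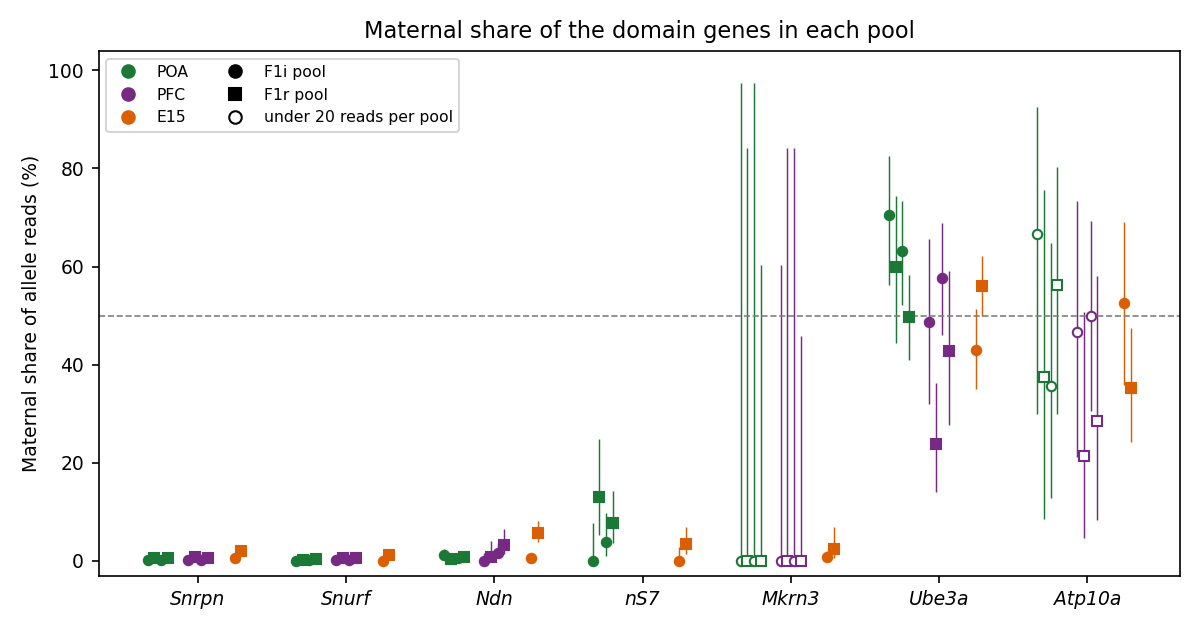
Maternal share of allele reads in percent (vertical axis) for each domain gene and F1 pool, with exact 95% binomial intervals that cover counting error only. Circles are F1i pools, squares are F1r pools, and open symbols are genes with a mean under 20 reads per pool. Snrpn, Snurf, Ndn and Mkrn3 lie near 0 in all tissues, while Ube3a lies between 23.8% and 70.6%.

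The few maternal reads were set beside the reads of the wrong strain in the inbred embryonic libraries. Over all autosomal genes the CAST libraries carried the B6 base in 1.36% of 4035430 reads and the B6 libraries the CAST base in 0.207% of 4902377. At Snrpn the E15 F1r pool, in which B6 is maternal, had 2.13% maternal reads, against 19 of 1194 reads with the B6 base in the CAST libraries, 1.59% (exact 95% interval 0.961 to 2.47). The E15 F1i pool, in which CAST is maternal, had 0.628%, against 4 of 1633 Snrpn reads with the CAST base in the B6 libraries, 0.245% (0.0668 to 0.626). At Ndn the F1r pool had 5.78%, against 8 of 194 reads with the B6 base in the CAST libraries, 4.12% (1.8 to 7.96). The intervals of the inbred libraries held the F1r shares of Snrpn, Snurf, Ndn, nS7 and Mkrn3. Maternal RNA of Snrpn, Snurf and Ndn above that level was thus not detectable in F1r at this depth. At nS7 and Mkrn3 the CAST libraries had the B6 base in only 0 of 52 and 3 of 65 reads. Their intervals reach 6.85% and 12.9% and are too wide to decide this. Counting error of the F1 shares was not part of this comparison. The inbred values covered 12 of the 20 bases of Snrpn, 3 of 4 of Snurf and 4 of 5 of nS7, whereas the F1 shares are over all listed bases. The F1i shares of Snurf, Ndn, nS7 and Mkrn3 lay within the intervals of the B6 libraries, and the F1i share of Snrpn lay just above the upper bound, at 0.628% against 0.626%. At Ube3a the inbred libraries had 0 of 82 and 0 of 87 wrong-strain reads, which allows shares of up to 3.66% and 3.45% at 3 reads, and up to 4.4% and 4.15% by the exact 95% interval.

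**Figure D2:**
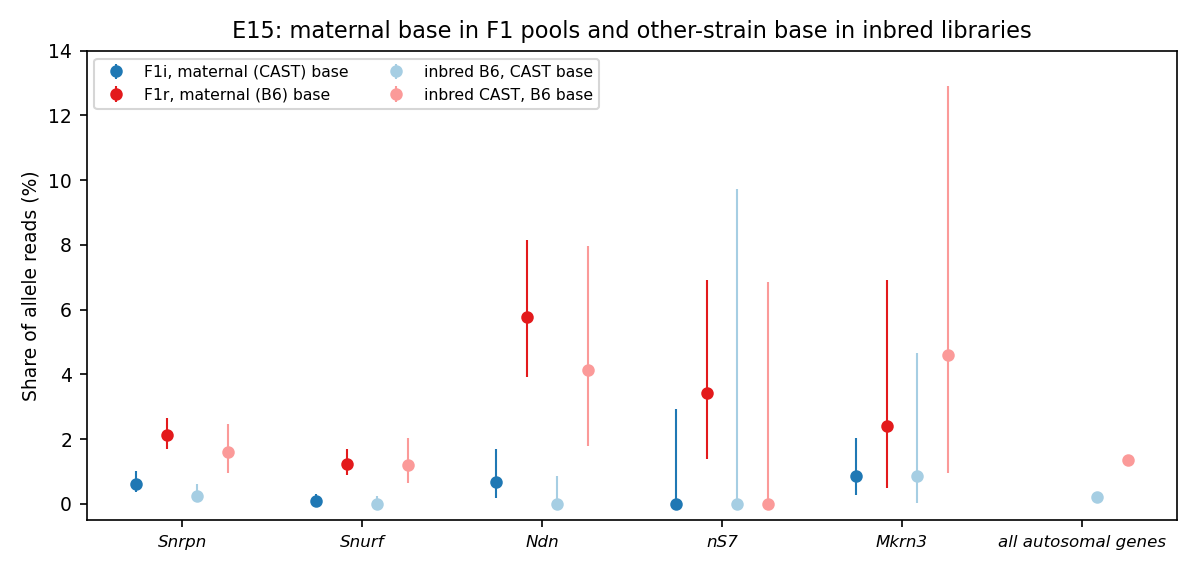
Share of allele reads in percent (vertical axis) at E15: the maternal base in the F1i and F1r pools and the other strain's base in inbred B6 and CAST libraries, with exact 95% binomial intervals. The maternal share of the F1r pool (2.13% at Snrpn, 5.78% at Ndn) lies close to the B6 base in CAST libraries (1.59% and 4.12%).

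Ube3a (chr7:66484122-66562097, plus strand) encodes a HECT ubiquitin ligase, and the sum over its transcript was called neither maternal nor paternal in any tissue. Its deepest base alone was called maternal in the POA and at E15, but the deepest base differed between them. In the POA it lay in the 5′ untranslated region (edgeR adjusted p = 0.00769), and at E15 in the 3′ untranslated region (Fisher's exact adjusted p = 1.73e-07). In the POA 36 of 51, 27 of 45, 55 of 87 and 68 of 137 reads were maternal in the order of pools above, a mean of 60.9% ± 8.7 (SD, n = 4; log2 1.12, SE 0.37, edgeR adjusted p = 0.25). In the PFC 18 of 37, 15 of 63, 45 of 78 and 18 of 42 were maternal, 43.3% ± 14.3 (SD, n = 4; edgeR adjusted p = 0.967). The embryonic pools had 65 of 151 in F1i and 151 of 269 in F1r, on opposite sides of 50%.

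The sum hid bases that went opposite ways. Ube3a has 3 informative exon bases, and a 4th base of depth lies 1581 bp past its annotated end. The base in the 5′ untranslated region (position 66484248) had maternal shares of 75.8%, 68.0%, 69.4% and 57.1% in the POA pools and was called maternal there (edgeR adjusted p = 0.00808). In the PFC it had 66.7%, 31.4%, 64.1% and 43.8%, and in E15 29.0% in F1i and 66.7% in F1r, with no call in either. The coding base (position 66541539, the window with T13C above) was below 50% in all 10 pools. Its maternal reads numbered 34 of 94 in the POA with no call, 15 of 70 in the PFC (paternal, edgeR adjusted p = 0.00741) and 41 of 140 at E15 (paternal, Fisher's exact adjusted p = 0.000808). The base in the 3′ untranslated region (position 66560651) had 17 of 20 maternal reads in the POA and 19 of 28 in the PFC, under the minimum of 10 reads per pool, and 117 of 154 at E15 (maternal, Fisher's exact adjusted p = 8.18e-07).

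The base past the annotated end (position 66563678) was called maternal in all 3 tissues. Its maternal reads numbered 16 of 16, 22 of 26, 16 of 19 and 8 of 18 in the POA pools, 20 of 27, 77 of 84, 77 of 84 and 32 of 34 in the PFC pools, and 908 of 1127 in F1i and 436 of 514 in F1r at E15. The POA F1r female pool, at 44.4%, was the only 1 of the 10 below 50%. The test gave log2 values of 4.39 in the POA (edgeR adjusted p = 0.000967), 6.30 in the PFC (edgeR adjusted p = 3.24e-13) and 4.52 at E15 (Fisher's exact adjusted p = 5.6e-142). With any 1 pool left out the values were 3.01 to 8.58 in the POA and from 5.07 upward in the PFC, and the call was lost in all 4 such fits in the POA, as were those of the 5′ base in the POA and of the coding base in the PFC, and in 3 of 4 in the PFC, all but the one without the F1i male pool. The coding base had a lower maternal share than the 5′ base, the 3′ base and the base past the end in 10 of 10 pools each. An alternative Ube3a transcript with another 3′ end had a base of its own at E15, numbered 3736, with 0 of 19 maternal reads. The library protocol does not keep the strand, so sense and antisense reads over an exon of Ube3a cannot be told apart.

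Within the introns of Ube3a, where spliced Ube3a messenger RNA leaves no reads, nearly all reads were paternal. The maternal share was 1 of 102 reads over 9 bases in the POA, 5 of 897 over 31 bases in the PFC and 76 of 3325 over 102 bases at E15. At the intron base shown above (position 66492656) 0 of 45 reads were maternal in the PFC and 1 of 201 at E15. Of the intron bases with a mean of at least 10 reads per pool, 7 of 7 in the PFC and 50 of 53 at E15 were called paternal, and none of the POA bases was deep enough to test. The exon share was above the intron share in 10 of 10 pools, 51.6% ± 12.2 in exons and 0.948% ± 1.08 in introns (SD, n = 10). At E15 8 intron bases had maternal shares above 20%, a group picked for this value, and all 8 lay between 48.3 and 53.3 kb after the start of the gene, with 3 to 19 reads each and 29 of 68 maternal in all. Between them lay 4 bases at or under 20%, and the other intron bases had 47 of 3257 maternal reads, 1.44%.

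**Figure D3:**
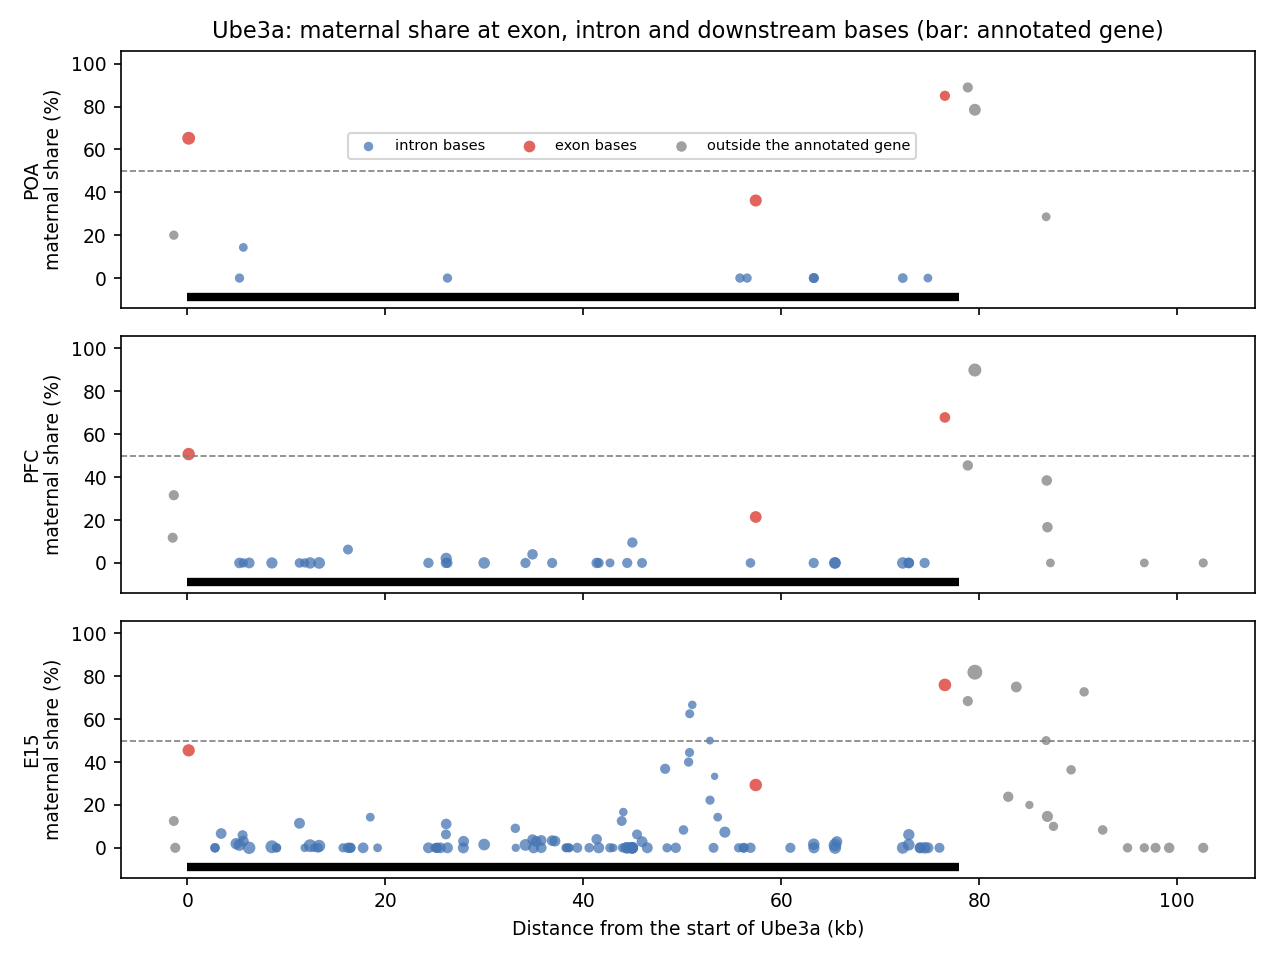
Maternal share in percent (vertical axis) of each genomic base along Ube3a by distance from the start of the gene in kb (horizontal axis), with larger points for more reads. Exon bases (red) spread from 21.4% to 85%, intron bases (blue) lie mostly at 0, and the deepest base past the end (grey) lies at 78.5% in the POA, 90% in the PFC and 81.9% at E15.

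Downstream of Ube3a the reads turned from maternal to paternal before the Snord115 genes. Of the 17 bases at E15 between the end of Ube3a and the first of 137 annotated Snord115 copies, 5 could be tested, with 1 called maternal and 2 paternal. The base at position 66571008, 8911 bp past the end, had 6 of 41 maternal reads at E15 (Fisher's exact adjusted p = 0.000773). Across the Snord115 cluster, small nucleolar RNAs hosted by the long paternal transcript, maternal reads numbered 2 of 318 in the POA, 0 of 127 in the PFC and 12 of 641 at E15. The stretch from the Snord116 cluster to Snrpn held more listed bases than any other outside a gene in the POA, 55, with 3 of 1513 maternal reads, and 1 of 948 in the PFC and 58 of 4735 at E15. The Snord116 cluster itself, with 27 annotated copies, had 1 listed base, at E15, with 0 of 11 maternal reads.

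Between Snrpn and Ndn lies a gene-poor stretch, and there too most reads were paternal. From Snrpn to the noncoding gene A230006K03Rik, maternal reads numbered 7 of 559 in the POA, 6 of 209 in the PFC and 64 of 925 at E15. The E15 share was 12.9% in F1i, on 38 of 295 reads, and 4.13% in F1r, and 3 of the 68 E15 bases lay above 50%. Within the genes the shares were lower at E15. A230006K03Rik itself had 0 of 123 maternal reads in the POA, 3 of 226 in the PFC and 8 of 515 at E15. A330076H08Rik had 4 of 205 in the POA, 0 of 150 in the PFC and 8 of 615 at E15. The stretch between both genes held 26 of 553, 11 of 481 and 41 of 1225 maternal reads in the POA, the PFC and E15. From A330076H08Rik to Ndn there were 4 of 122, 0 of 26 and 27 of 749.

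The deepest bases of each stretch showed the same in single positions. Between Snord116 and Snrpn, position 67084510 had 0 of 107 maternal reads in the PFC and 0 of 352 at E15, and position 67126545 had 1 of 130 in the POA, 1 of 165 in the PFC and 0 of 103 at E15. Within an intron of Snrpn, position 67192817 had 0 of 291, 1 of 132 and 4 of 375, and position 67154908 had 0 of 44, 0 of 64 and 1 of 107, in the POA, the PFC and E15. In the 3′ untranslated exon of Snrpn, position 67128088 had 1 of 999, 5 of 1333 and 5 of 870. All of these were nearly all paternal, in every tissue that listed them. The coding base of Snrpn shown above, position 67131688, was listed only at E15, with 0 of 1426 maternal reads in F1i. In F1r it had 8 maternal and 87 paternal reads, a maternal share of 8.42%. The F1r pool had far fewer reads there than the F1i pool, and the cause was not tested. In the transcript alignment the deep Snrpn bases 1569 and 2093 had 21 of 2803 and 21 of 2749 maternal reads at E15. By cross, base 1569 had 0 maternal and 1464 paternal reads in F1i, and 21 and 1318 in F1r. Base 2093 had 2 and 909 in F1i, and 19 and 1819 in F1r. In the Snord115 cluster position 66598440 had 0 of 31, 0 of 48 and 1 of 57 maternal reads, and position 66598492 had 0 of 42 in the PFC and 1 of 134 at E15. In the gene-poor stretch beyond Snrpn, position 68155805 had 4 of 199, 2 of 66 and 0 of 82, and position 68157967 had 0 of 156, 0 of 22 and 0 of 27. Both the Snord115 bases and the first pair beyond Snrpn were read almost wholly from the paternal allele. Further on, position 68749444 had 1 of 97, 4 of 257 and 0 of 86, and position 68760097 had 1 of 111 in the PFC and 4 of 28 at E15. In A230006K03Rik the deepest positions, 68234549 and 68235523, had 1 maternal read of 182 over all tissues, and in A330076H08Rik positions 69076260 and 69127165 had 2 of 233. Also over all tissues, positions 69129675 and 69129683 before Ndn had 1 of 149, and positions 66915355 and 66925011 between the Snord clusters had 1 of 93. Among the positions given singly beyond Snrpn, 68760097 at E15 had the highest maternal share, on few reads. Positions 69519539 and 69519564 between Ndn and Magel2 were listed only at E15, with 0 of 18. The other base of that stretch, just past the end of Ndn, had 3 of 4 maternal reads, and none of the 3 was deep enough to test. Within Magel2 position 69524398 had 0 of 79 in the POA and 0 of 19 at E15, and position 69525916 had 0 of 90 in the POA and 4 of 233 at E15. Within Mkrn3 positions 69563419 and 69564301 had 1 of 67 and 0 of 89 at E15. A second deep intron base of Ube3a, position 66496516, had 0 of 55 in the PFC and 2 of 200 at E15. The base just before Ube3a, position 66482747, stood between, with 2 of 10 maternal reads in the POA, 6 of 19 in the PFC and 2 of 16 at E15, too few to test, and position 66482891 had 0 of 18 at E15.

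Over the whole domain 30 of 33 tested bases were called paternal and 2 maternal in the POA, 25 of 27 paternal and 1 maternal in the PFC, and 209 of 227 paternal and 2 maternal at E15. Of all autosomal bases tested, 0.979% were called in the POA, 0.505% in the PFC and 1.4% at E15, and 0.366%, 0.269% and 0.839% were called maternal. The maternal calls were the 5′ base of Ube3a in the POA, its 3′ base at E15 and the base past its end in all 3 tissues.

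**Figure D4:**
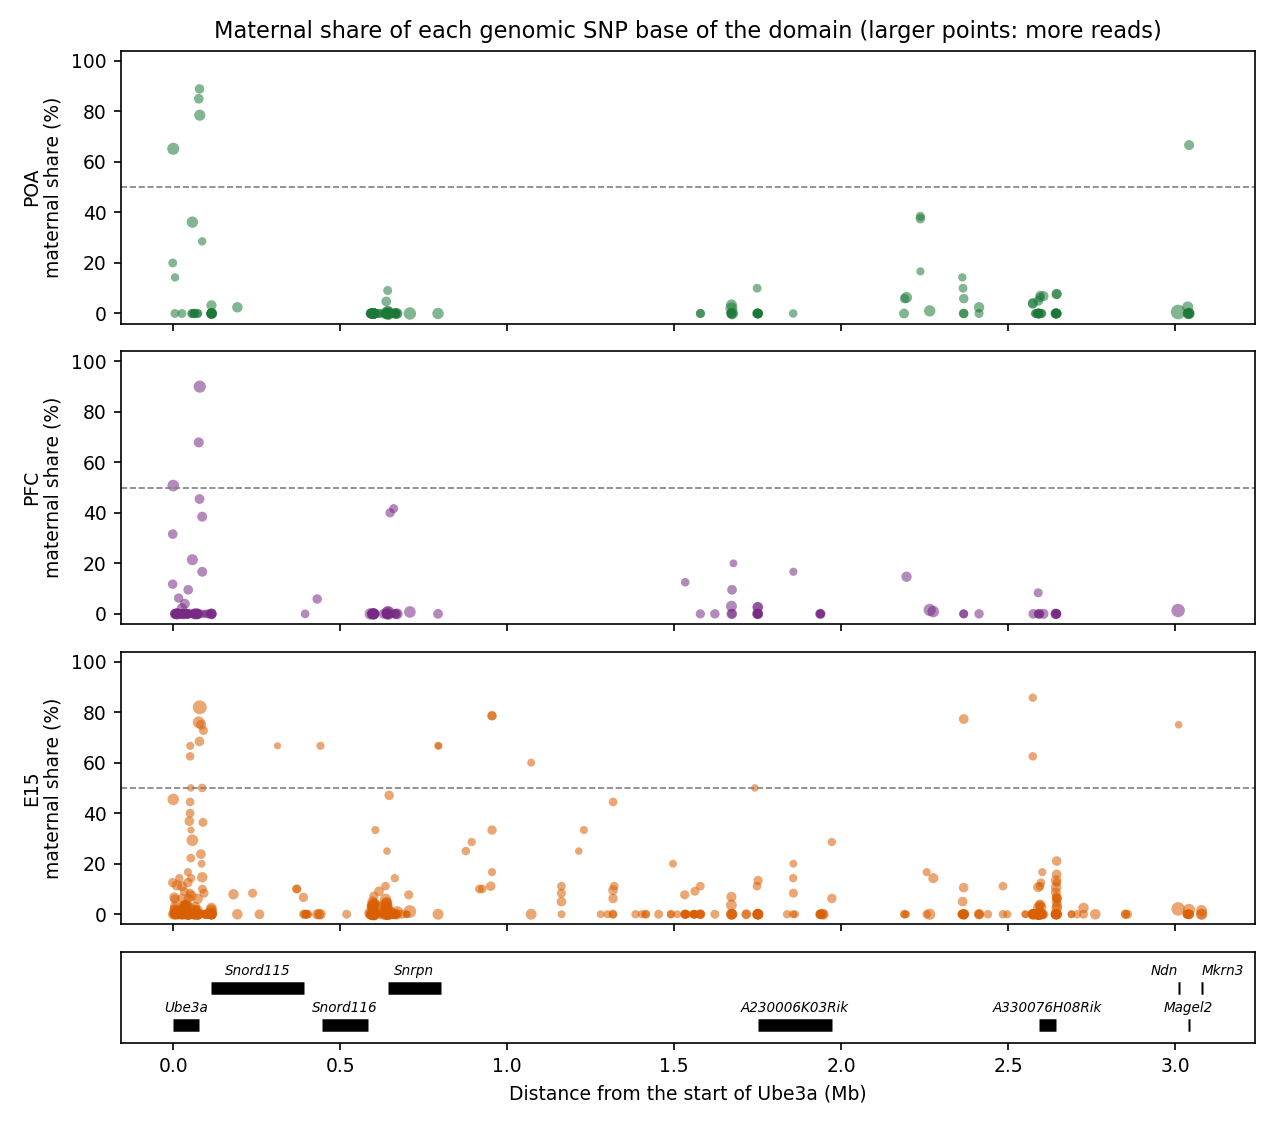
Maternal share in percent (vertical axis) of each genomic base of the domain by distance from the start of Ube3a in Mb (horizontal axis), with larger points for more reads and the annotated genes as bars at the bottom. Every base above 50% with over 100 reads sits at Ube3a or just past its end, and the points from Snord115 to Mkrn3 lie mostly near 0.

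Atp10a (chr7:65913572-66084796), a phospholipid-transporting ATPase next to Ube3a, had few reads. Maternal reads numbered 6 of 9, 3 of 8, 5 of 14 and 9 of 16 in the POA and 7 of 15, 3 of 14, 14 of 28 and 4 of 14 in the PFC, under the minimum for a test. At E15 20 of 38 reads were maternal in F1i and 25 of 71 in F1r, 52.6% and 35.2%, with no call (Fisher's exact adjusted p = 0.558). The pools lay on both sides of 50% in the POA and at E15, and at or under 50% in the PFC.

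The genes on either side of the domain were mostly read from both parents. Of the 22 genes of a flanking list, 14 were tested in the POA and 14 in the PFC with 0 calls in both, beside 1.18% and 0.444% of all genes. At E15 16 were tested, with 2 maternal calls, beside 3.2% of all genes, and 1 paternal, beside 1.66%. The list also names Magel2 and the antisense RNA of Ube3a, which lie within the domain and were not listed under those names. An unadjusted p under 0.05 was reached by 4 flanking genes in the POA and 3 in the PFC with edgeR, beside 793 of 11504 and 583 of 11029 genes. DESeq2 called 0 flanking genes in both. With Fisher's exact test at E15 it was reached by 5 of the 16, beside 2997 of 14191 genes. The median log2 value of the list was -0.35 in the POA, 0.06 in the PFC and -0.17 at E15, beside -0.01, -0.05 and 0.03 over all genes tested. Herc2, a giant ubiquitin ligase gene, had maternal shares of 50.6% ± 1.69 in the POA and 49.6% ± 3.18 in the PFC (SD, n = 4 each), and 48.2% as the mean of the E15 pools. Gabra5 and Gabrg3, which encode GABA-A receptor subunits, had means of 48.1% and 45.3% in the POA and of 46.1% and 55.8% in the PFC. Nipa1, Nipa2, Cyfip1 and Tubgcp5 had 38.9% to 54.4% in the adult regions, and Chrna7, Klf13, Mtmr10, Apba2, Tjp1, Ndnl2 and Trpm1 had 40.8% to 57%.

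At E15 the maternal calls were Tjp1, a tight junction scaffold gene, at 53.1% (Fisher's exact adjusted p = 0.0474) and Ndnl2, a MAGE gene of the SMC5/6 complex, at 59.3% (Fisher's exact adjusted p = 0.0437). Both calls were lost in the edgeR fit on all 10 pools (adjusted p = 0.562 and 0.453) and with no minimum of reads (Fisher's exact adjusted p = 0.0568 and 0.0525). The paternal call was Peg12, a Frat family gene just beyond Mkrn3, at 20.6% in F1i and 23.7% in F1r (Fisher's exact adjusted p = 2.5e-13). Its bases differed: those numbered 904, 1191, 2131 and 2427 had 0 of 15, 0 of 32, 1 of 41 and 0 of 11 maternal reads, and those numbered 1008, 1011 and 1017 had 12 of 29, 13 of 31 and 14 of 29. In the adult regions Peg12 carried the CAST base in both crosses, so that it was 87.5% to 100% maternal in F1i and 0% to 20.6% maternal in F1r, on 71 reads in the POA and 77 in the PFC.

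Between regions, Ube3a showed the widest gap in maternal share of the members compared on the same bases. It was 60.9% ± 8.7 in the POA and 43.3% ± 14.3 in the PFC (SD, n = 4 each), and the log2 difference of 1.96 (SE 0.61) missed the threshold (edgeR adjusted p = 0.334). None of the 4 members tested passed for POA minus PFC with edgeR, against 0.286% of 10823 genes in either direction and 0.0924% higher in the POA, and DESeq2 called 0 of them. An unadjusted p under 0.05 was reached by Ube3a alone of the members, beside 629 of 10823 genes. Without the PFC F1r male pool the Ube3a difference was 1.28, and without the PFC F1i female pool that of Ndn was 2.34 in place of -1.94. Over the bases listed in both tables Snrpn had 0.276% ± 0.211 in the POA and 0.451% ± 0.36 in the PFC, and Ndn had 0.755% ± 0.378 in the POA and 1.39% ± 1.4 in the PFC.

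Between ages, 1 of the 4 tested members, Snrpn, passed, against 0.978% of 10940 genes in either direction and 0.74% with a lower value in adults. Its maternal share was 0.363% ± 0.289 in the 8 adult pools and 0.936% ± 0.805 in the 2 E15 pools (log2 difference -2.86, SE 0.72, edgeR adjusted p = 0.0473). The adjusted p was 0.055 without the POA F1r female pool, 0.0614 without the PFC F1i male pool and 0.0713 without the PFC F1r female pool in edgeR, and 0.0989 with DESeq2 on all pools. With X-linked genes in the edgeR fit it was 0.129. On the deepest base alone the log2 difference was 1.43, the other way (edgeR adjusted p = 0.802). No fit of this comparison left out an E15 pool. The call rested on the base numbered 631, where 9 of 82 reads were maternal in the POA, 8 of 47 in the PFC and 17 of 186 at E15. Without that base the shares were 0.277% ± 0.247 and 0.673% ± 0.834, and the call was lost (log2 difference -1.37, edgeR adjusted p = 0.82). Ndn had 1.07% ± 1.01 in adult and 3.23% ± 3.61 in E15 pools (edgeR adjusted p = 0.644), and Ube3a 52.1% ± 14.5 and 49.6% ± 9.25 (edgeR adjusted p = 0.955). Age and the dissected region cannot be told apart in this comparison.

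Between the sexes no member passed, and no gene did among 11275 tested (0%). An unadjusted p under 0.05 was reached by 489 of them with edgeR, and DESeq2 called 0. Ndn had 1.58% ± 1.19 in female and 0.571% ± 0.53 in male adult pools, and Ube3a 53.4% ± 8.95 and 50.8% ± 20.1 (SD, n = 4 each).

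The levels of the genes were compared on reads of both alleles at bases listed in every table of a comparison, both adult tables for POA over PFC. CPM are counts per 1000000 allele reads of the pool over the genes of that fit, with pool totals scaled by TMM. In bulk tissue, fewer cells of a type and less RNA per cell cannot be told apart. Ndn had 176, 145, 171 and 208 CPM in the POA pools (F1i male, F1r male, F1i female, F1r female) and 51.1, 31.1, 47.3 and 39.7 in the PFC pools. The regions did not overlap, and Ndn was 4.18-fold higher in the POA (log2 2.06, SE 0.15, edgeR adjusted p = 1.72e-07). Snrpn had 394, 392, 331 and 355 CPM in the POA pools, against 432, 564, 550 and 557 CPM in those of the PFC, again without overlap, and was lower in the POA (log2 -0.51, SE 0.11, edgeR adjusted p = 0.00152). Snurf, on shared reads, had a log2 value of -0.55, and Ube3a had 13.3 ± 2.83 in the POA and 10.5 ± 3.05 in the PFC (log2 0.34, SE 0.23, edgeR adjusted p = 0.223). Without the PFC F1r male pool the Ube3a value was 0.56 and passed (edgeR adjusted p = 0.0456), and without the PFC F1r female pool it was 0.13. Of all 11576 genes tested, 55.8% passed, so that a share of 3 in 4 members is close to that of all genes. Oligodendrocyte markers moved with region, their sum being 9815 to 10582.5 RPM in the POA and 1608 to 5267 in the PFC. Neuron markers were lower in the POA, like Snrpn, their sum being 2264 to 2653 RPM in the POA and 3270 to 4278 in the PFC without overlap. The part of either list in the results was not tested.

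Snrpn and Ndn were higher in adult than in embryonic brain as a mean of both regions. In the fit on bases listed in all 3 tables, Snrpn had 391 ± 34.5 CPM in the POA and 550 ± 61.2 in the PFC (SD, n = 4 each), and 223 and 294 in the E15 pools (log2 0.85, SE 0.14, edgeR adjusted p = 7.63e-05). Ndn had 186 ± 27.9 in the POA and 44.4 ± 9.67 in the PFC, and 54.3 and 44.2 at E15 (log2 0.89, SE 0.18, edgeR adjusted p = 0.000468). The rise of Ndn came from the POA alone, since the PFC pools overlapped the E15 pools. Ube3a had 14.1 ± 3.05 and 11 ± 3.09 in the adult regions and 13.7 and 22.9 at E15 (log2 -0.53, SE 0.24, edgeR adjusted p = 0.0658). Without the E15 F1i pool it was -0.80 (edgeR adjusted p = 0.0288) and without the E15 F1r pool -0.20, and it also passed without the PFC F1r male pool (-0.60, edgeR adjusted p = 0.0442) and without the PFC F1i female pool (-0.59, edgeR adjusted p = 0.0498). Of all 11781 genes tested, 63.7% passed and 30.5% were higher in adults. Markers of progenitors and immature neurons summed to 93.8 to 123 RPM in POA, 56.2 to 72.7 in PFC and 2418 to 2587 in E15 pools, and their part in these differences was not tested.

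**Figure D5:**
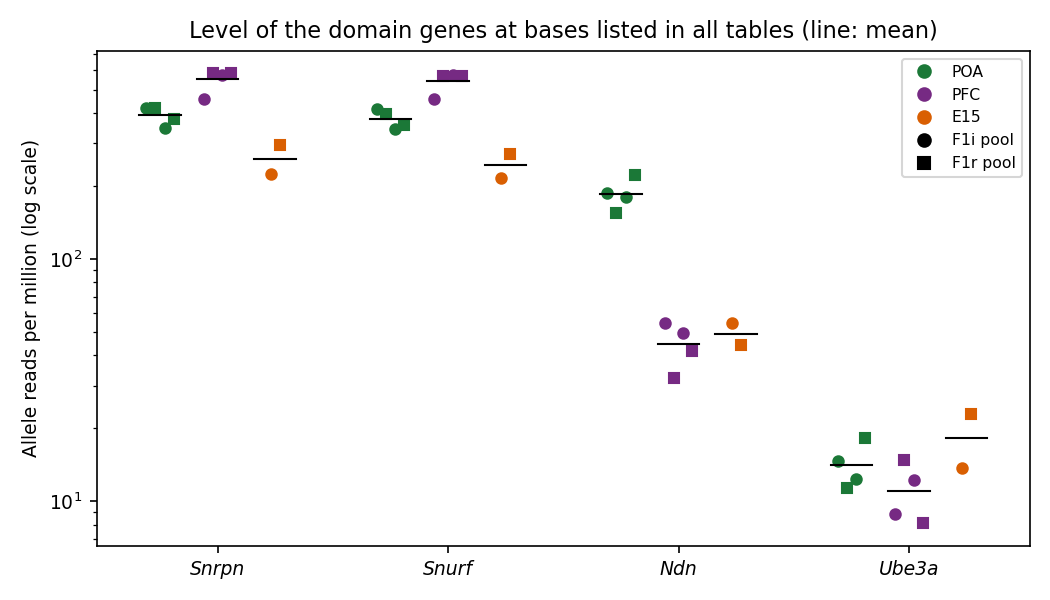
Allele reads in CPM on a log axis (vertical) for Snrpn, Snurf, Ndn and Ube3a in each F1 pool at bases listed in all 3 tables, with a line at the mean of each tissue. Ndn stands apart in the POA (186), against 44.4 in the PFC and 49.2 at E15, while Snrpn is lowest at E15 (259). Genes differ in the number and length of their listed bases, so heights are comparable within a gene only.

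Outside the spliced genes the order of the tissues differed. At the 5 intron bases of Ube3a listed in all tables there were 2.12 to 4.14 RPM of genomic allele reads in POA pools, 4.51 to 8.69 in PFC pools and 13.8 to 15 in E15 pools, and the 3 tissues did not overlap. At the 2 shared bases between the end of Ube3a and Snord115 there were 3.75 to 8.88 in POA, 6.88 to 23.2 in PFC and 54.1 to 117 in E15 pools. At the 3 exon bases of Ube3a the ranges overlapped, at 13.9 to 20.9 in POA, 8.71 to 16.9 in PFC and 15.2 to 26.2 in E15 pools. The 18 shared bases between Snord116 and Snrpn had 28.5 to 57.1 in POA, 21.8 to 69.3 in PFC and 59.6 to 99.3 in E15 pools. These levels were not tested. Magel2 had 13.1 to 15.3 RPM in POA pools and 11.1 and 17.7 at E15, over partly different bases. Mkrn3 had 8 POA reads at base 725 and 90 E15 reads at the same base, and 14 PFC reads at base 926 and 499 E15 reads there.

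Genes that work with the domain's proteins were read as lists. Of 16 genes of the Sm core and its assembly, the machinery in which SmN takes part, 8 were tested for parental bias in each tissue and none was called (edgeR in the adult regions, Fisher's exact test at E15). Of all genes tested, 1.18% were called in the POA, 0.444% in the PFC and 4.86% at E15. An unadjusted p under 0.05 was reached by 2 Sm genes in the POA and 1 in the PFC with edgeR, beside 793 of 11504 and 583 of 11029 genes. DESeq2 called 0 Sm genes in both. With Fisher's exact test at E15 it was reached by 4, beside 2997 of 14191 genes. The members of largest value were Snrpf and Gemin4 in the POA (log2 -0.85 and 0.69), Snrpb and Snrpf in the PFC (0.40 and -0.36), and Snrpd1 and Snrpf at E15 (2.20 and 0.996). Snrpd1 passed the adjusted threshold at E15 but lay on opposite sides of 50% in the crosses, at 87.3% in F1i and 40.3% in F1r. For level, 2 of 9 Sm genes passed as higher and 2 as lower in the POA, against 26.8% and 29% of all genes, so that the share called was no higher than that of all genes, and the list's median of 0.36 stood beside -0.01. Snrpd3, which encodes a core Sm protein, had a log2 value of -1.66 for POA over PFC (SE 0.17, edgeR adjusted p = 4.02e-06), and Snrpb2 one of -0.43 (edgeR adjusted p = 0.0196). Snrpa, of the U1 particle, had 1.05 (edgeR adjusted p = 0.0396, and 0.0894 with DESeq2), and Snrpb 0.93 (SE 0.19, edgeR adjusted p = 0.00104). Of 8 fits with 1 pool left out, 4 lost the call of Snrpb2 and 5 that of Snrpa. Between ages 5 of 9 Sm genes passed, against 63.7% of all genes, and all 5 were lower in adults, against 33.2% of all genes, led by Snrpd1 at -1.75 (SE 0.23, edgeR adjusted p = 9.8e-06), and Snrpd3, Snrpe, Snrpb2 and Smn1 had -1.56, -1.52, -0.82 and -0.53, the call of Smn1 being lost without the E15 F1i pool. The list's median of -0.53 stood beside -0.04 over all genes.

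Of 26 ubiquitin ligase genes, makorins and other relatives or partners of the members, Herc3 was the only 1 called for parental bias in each tissue, out of 17 tested in the POA, 19 in the PFC and 21 at E15. Of all genes tested, 1.18% were called in the POA, 0.444% in the PFC and 4.86% at E15, so that 1 of 21 is close to the E15 share. The maternal share of Herc3 was 77.3% ± 2.48 in the POA, 57.2% ± 4.87 in the PFC (SD, n = 4 each) and 57% as the mean of the E15 pools. It lies on chromosome 6, and Nap1l5, an imprinted gene, lies within it. In the PFC the value of Herc3 was 0.86 on the log2 scale (edgeR adjusted p = 0.000505), and 0.85 with an adjusted p of 0.876 where the edgeR fit included X-linked genes. At E15 its call was lost on the deepest base alone (log2 0.69, Fisher's exact adjusted p = 0.33). The next in size was the makorin gene Mkrn1 in both adult regions, with log2 values of -0.88 in the POA and 0.52 in the PFC that missed the threshold (edgeR adjusted p = 0.22 and 0.929). On its deepest base alone the POA value of Mkrn1 was -1.81 and passed (edgeR adjusted p = 0.0173). At E15 Ube2d3 and Trim27 had the largest values, -1.25 and -1.09, with the crosses on opposite sides of 50%.

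For level, 6 of 18 tested were higher and 8 lower in the POA, against 26.8% and 29% of all genes, and the list's median of -0.35 stood beside -0.01 over all genes. Those higher were Herc1, Arhgef15, Trim27, Mkrn2, Atp8a2 and Herc2 (log2 1.07, 1.07, 0.83, 0.75, 0.65 and 0.40). Those lower were Arc, Ube3b, Herc3, Ube2d2, Ube2l3, Ube3c, Vps35 and Mkrn1 (log2 -3.14, -1.02, -0.99, -0.82, -0.75, -0.65, -0.51 and -0.39). Leaving out 1 pool lost the call of Mkrn1 in 6 of 8 fits, of Herc2 and Atp8a2 in 5, of Vps35 in 2 and of Ube2d2 in 1. Between ages 5 were higher and 4 lower in adults, against 30.5% and 33.2% of all genes, and the median was -0.18 beside -0.04. Those higher were Arc, Herc3, Arhgef15, Atp8a1 and Ube3b (3.99, 1.84, 1.07, 0.62 and 0.40), and those lower were Ube2d1, Mkrn1, Ube2d2 and Ube3c (-1.67, -1.19, -1.04 and -0.68). The call of Ube2d2 was lost without the E15 F1r pool and that of Atp8a1 without the E15 F1i pool. Arc, an immediate early gene of synapses, had the largest value of the list in both comparisons (SE 0.14 and 0.32, edgeR adjusted p = 3.77e-09 and 6.74e-08). Ube2l3, Ube2d1, Ube2d2 and Ube2d3 encode E2 enzymes, which hand ubiquitin to ligases such as the product of Ube3a.

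The genes whose maternal shares were nearest to those of a member over the 10 pools were found among 10376 autosomal genes by the root mean square difference. For Snrpn they were Peg10, a retrotransposon-derived paternal gene, at 0.283 percentage points, Snurf at 0.351 and AK035901 on chromosome 7 at 0.513. For Ndn they were Nap1l5 at 1.27, BC070450 on chromosome 7 at 1.35 and Peg13, listed by its RefSeq accession, at 1.42. For Ube3a they were mKIAA4216 on chromosome 7 at 6.87, BC022623 on chromosome 16 at 7.22 and Ocln, a tight junction gene on chromosome 13, at 7.37. Whether mKIAA4216, AK035901 and BC070450 share bases with the members was not checked, so they may be no separate genes. Snurf shares its reads with Snrpn. Atp10a could not be placed, since it was under the minimum in both adult regions.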

How the data were processed

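Allele-specific RNA-seq reads were measured in 24 F1 libraries and in the inbred parental libraries of the embryo. Reads were aligned with Novoalign to mm9, per the submitters' processing notes, and the deposited files hold whole-number counts of CAST and B6 reads at each base that differs between the strains, in transcripts and on the genome. The authors had summed the technical replicates, and a table lists a base only where every pool has a read there. The CAST base of a purely genomic position was not used here. Counts at the bases of the transcript with most reads were summed per gene and pool here.

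Parental bias was tested with edgeR 4.0.16 (quasi-likelihood, R 4.3.3, limma 3.58.1) as the interaction of allele and cross, with the pool total as library size, on autosomal genes with a mean of at least 20 reads and genomic bases with at least 10 reads per pool. The 2 E15 pools were compared by a two-sided Fisher's exact test, whose log2 value adds 0.5 to each cell. Level was tested with TMM and filterByExpr. All p-values were Benjamini-Hochberg adjusted over all features tested. DESeq2 1.42.0, other minima, the deepest base alone, spaced bases, X-linked genes and leaving out each pool were the alternatives. The E15 pools were left out in the level fits only, not in the tests of parental bias or of its differences. The tests were also run on simulated data, and the outcome is not given here. Coordinates follow GENCODE vM1 on the same build, and Peg13 was named through RefSeq.

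Named were all 7 members, every listed flanking gene, of the other lists the called genes and the 2 of largest value, the 3 nearest genes of a member, and the 2 deepest bases of each annotated segment of the domain. The values of 1 flanking gene are not reported here, though the counts include it. The members and lists were chosen with earlier results of these data known. Binomial intervals and limits from a count of 0 cover counting error only.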

Additional observations from a re-analysis of the deposited data

Results flagged for a closer look

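Pools that stood apart were looked for in 56 sets of 4 pools, a member's maternal share or RPM, or a stretch's maternal share, in 1 region, and 7 were found, where chance gives about 1 in 20 sets of untied values. In 6 of them the other 3 pools had 0 maternal reads, so that 1 or a few reads make the gap and that rate does not apply. The POA F1r female pool was the one apart for the maternal share upstream of Ube3a (33.3%), in the introns of Ube3a (2.70%), between Snord116 and Snrpn (0.516%) and at the genomic bases in Snrpn exons (0.291%). The PFC F1r female pool was the one apart between the Snord115 and Snord116 clusters (14.3%) and between Snord116 and Snrpn (0.503%). In both F1r pools the maternal base is that of B6, which the inbred CAST libraries also carried in 1.36% of autosomal reads, and its part in these shares was not tested. The PFC F1i male pool had 392 RPM at Snrpn, against 490 to 504 in the other 3 PFC pools.

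The maternal share of Snrpn was called different between adult and E15 pools by the test of the difference itself, with a log2 difference of -2.86. That call was lost under several alternatives, and the report gives the base and the pools on which it rested.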

How the results depend on the processing

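No paired analysis was possible because the columns carry no replicate number by which to pair, and no label states that the same animals gave both regions. Cross and sex, by which the pools of both regions match, were terms of the POA over PFC level fit, and a block of matched pools was not run. The paternal calls of Snrpn, Snurf, Ndn, nS7 and Mkrn3 kept their direction and their side of the threshold under every alternative run on them. Counts of called genes moved with the setting. With X-linked genes in the fit 47 were called in the POA, 32 in the PFC and 47 in both adult regions, 2 for POA minus PFC, 9 for adult minus E15 and 328 for female minus male. DESeq2 called 75 in the POA, 10 for POA minus PFC and 23 for adult minus E15. The deepest base of each gene gave 359 at E15 and 1 for female minus male, and edgeR on all 10 pools gave 131 at E15. With 1 adult pool left out the counts were 61 to 159 in the POA and 11 to 92 for POA minus PFC. They were 57 to 167 for adult minus E15 and 0 to 21 for female minus male. Genomic bases called numbered 216 to 272 in the POA and 120 to 164 in the PFC. A minimum of 30 reads gave 250 genomic bases in the PFC. Of the 328 for female minus male, 323 had a lower value in females. Male pools carry no paternal X, so their X-linked reads come from the mother whether or not a gene is imprinted. The 328 are therefore no count of sex-specific imprinting. The cause of the other moves was not tested, except that a fit without 1 pool has fewer samples.

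Signs changed only where the value was near 0 or rested on few bases or reads. On the deepest base alone the log2 value of Ube3a was 0.17 in the PFC, 3.14 at E15 (Fisher's exact adjusted p = 1.73e-07) and -0.048 for female minus male, that of Tjp1 at E15 was -0.079, and those of Snrpn and Snurf for adult minus E15 were 1.43. With 1 pool left out Ndn ranged from -3.01 to 2.34 for POA minus PFC, Ube3a from -0.10 to 0.53 for adult minus E15 and from -0.84 to 1.74 for female minus male, Snrpn from -0.023 to 0.69 and Snurf from -0.17 to 5.11 for female minus male, and the 5′ base of Ube3a in the PFC from -0.23 to 0.53. Of the single genes and bases, 648 of the fits with 1 pool left out changed neither call nor sign, 79 lost and 4 gained a call, and of the other alternatives 488 changed neither, 22 lost and 2 gained a call. Without the nS7 base of highest maternal share, an alternative chosen after seeing the data like that for Snrpn, nS7 in the POA had a log2 value of -13.68. Depth limits the adult values of Mkrn3 and Atp10a and the E15 pools give no spread within a cross.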

Other observations

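The genes flanking the domain were also followed in level. Of 15 tested for POA over PFC, 5 were higher and 5 lower in the POA, beside 55.8% of all genes called either way. Gabra5, which encodes a GABA-A receptor subunit, was lower in the POA, at 49.2 ± 6.05 CPM in the POA and 179 ± 33.4 in the PFC (log2 -1.87, SE 0.15, edgeR adjusted p = 5.26e-07; SD, n = 4 each). Gabrg3, of the same receptor family, was higher in the POA, at 7.15 ± 1.34 in the POA and 4.49 ± 1.75 in the PFC (log2 0.69, edgeR adjusted p = 0.0381). Apba2, Tjp1 and Ndnl2 were lower in the POA (log2 -0.67, -0.68 and -0.71), and Cyfip1, an actin regulator that binds the fragile X protein, Nipa1, Chrna7 and Herc2 were higher (0.58, 0.53, 0.52 and 0.40). Leaving out 1 pool lost the call of Chrna7 in 6 of 8 fits and those of Gabrg3 and Herc2 in 5.

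Between ages 3 of 15 flanking genes were higher and 3 lower in adults, against 30.5% and 33.2% of all genes. Klf13, a Krüppel-like transcription factor, was highest of them, at 10.6 ± 2.62 CPM in the POA, 8.89 ± 2.78 in the PFC and 1.61 ± 1.07 at E15 (log2 2.65, SE 0.35, edgeR adjusted p = 1.17e-05; SD, n = 4, 4 and 2). On all bases of either table its value was 0.50 and the call was lost (edgeR adjusted p = 0.0965). Gabrg3 and Chrna7 were higher as well (0.94 and 0.79), and Mtmr10, Tjp1 and Gabra5 were lower (-0.69, -0.61 and -0.37). Leaving out 1 pool lost the call of Gabra5 in 8 of 10 fits, of Gabrg3 in 7, of Chrna7 in 3 and of Mtmr10 in 1. None of these genes was called for parental bias in an adult region with edgeR.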
